A study of Sus scrofa with 12 samples.

Results

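The swine leukocyte antigen (SLA) class II genes and their partners were followed in longissimus dorsi, the loin muscle, of 12 Iberian pigs. The members were the 10 symbols of the class II chains (SLA-DRA, SLA-DRB1, SLA-DQA1 and SLA-DQB1), the SLA-DM and SLA-DO chains (SLA-DMA, SLA-DMB, SLA-DOA and SLA-DOB), the invariant chain CD74 and the transactivator CIITA. Of the 25880 genes in the count tables, 14857 carried a symbol, and 6 of the 10 listed symbols had a row: SLA-DQB1, SLA-DMA, SLA-DMB, SLA-DOA, CD74 and CIITA. The symbols SLA-DRA, SLA-DRB1, SLA-DQA1 and SLA-DOB had none. A further 2 class II genes were listed under human-style symbols, HLA-DRA and HLA-DOB, and their values are given beside those of the 6 members but are not counted with them. The expression of SLA-DRB1 and SLA-DQA1 was not analysed here, and 3 rows without a symbol, whose identifiers are next to those of the class II genes, were not assigned to them.

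All animals were castrated males of a closed commercial Iberian population, slaughtered at about 17 months after free-range fattening, and 1 muscle sample and 1 library came from each. The pigs were chosen for extreme breeding values for myoglobin, the oxygen-binding protein that colours muscle red, with 6 in the High MB group and 6 in the Low MB group and without full siblings. Their muscle contained on average 2.48 ± 0.0657 mg/g of myoglobin in High MB and 1.39 ± 0.147 mg/g in Low MB (SD, 6 pigs each). The comparison addressed which genes differ in muscle expression between pigs divergent for this trait. Within the selected pigs, a genetic effect and other properties of the same animals cannot be told apart.

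Class II molecules are heterodimers of an alpha and a beta chain that present peptides from endocytosed proteins to CD4+ T cells. CD74 occupies the groove of the new heterodimer and guides it to the endosome, where cathepsins trim it to a short fragment that the DM heterodimer then exchanges for a peptide, while the DO heterodimer restrains DM. Macrophages, dendritic cells and B cells carry class II constitutively, in the pig endothelial cells and many T cells do as well, interferon gamma induces it in other cells, and CIITA is the coactivator that joins the factors bound at the X and Y boxes of class II promoters.

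Total gene counts were between 38914271 and 91318334 per library, and fell into 7 standard libraries of at most 40001432 counts (4 High MB and 3 Low MB pigs) and 5 deep libraries of at least 59227608 (pigs 4 and 6 of High MB, with pigs 1, 5 and 6 of Low MB). Pig 2 of High MB and pig 4 of Low MB clustered apart from the other pigs over all genes. The skeletal muscle markers were high in every library, with the actin gene ACTA1 at a mean of 44113 CPM (counts relative to library size, scaled by TMM), and 0 of 6 muscle markers tested differed at an unadjusted p under 0.05. All libraries were whole muscle, in which fewer cells of a type and less RNA per cell cannot be told apart.

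The class II chain, DM and DO genes lie in one stretch of chromosome 7 in the RefSeq annotation of Sscrofa11.1, from SLA-DRA (24825037 to 24830650, plus strand) to SLA-DOA (25178866 to 25182665, minus strand). SLA-DQB1 (24969034 to 24977238), SLA-DOB (25030435 to 25038196), SLA-DMB (25119278 to 25125089) and SLA-DMA (25133494 to 25137928) lie between them on the minus strand. CD74 is on chromosome 2 (151402210 to 151409924, minus strand) and CIITA on chromosome 3 (32171706 to 32230775, minus strand). The promoters of class II genes are printed below because the members are read together and share short sequence elements there. Each is the 150 bases directly before the annotated start of the gene, 5′ to 3′ on the strand of the gene, with the elements described after them in capitals. CD74 is shown as a window without any.
SLA-DRA, chr7:24824887-24825036, plus strand: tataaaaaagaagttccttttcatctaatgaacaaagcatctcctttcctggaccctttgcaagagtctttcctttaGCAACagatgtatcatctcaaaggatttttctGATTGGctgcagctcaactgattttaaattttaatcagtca
SLA-DQB1, chr7:24977239-24977388, minus strand: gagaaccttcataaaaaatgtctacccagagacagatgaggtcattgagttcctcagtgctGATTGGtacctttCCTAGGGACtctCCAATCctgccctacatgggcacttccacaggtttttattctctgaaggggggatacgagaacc
SLA-DMA, chr7:25137929-25138078, minus strand: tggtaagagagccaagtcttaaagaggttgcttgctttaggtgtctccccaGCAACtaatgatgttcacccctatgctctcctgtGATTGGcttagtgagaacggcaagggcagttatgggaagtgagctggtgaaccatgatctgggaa
SLA-DMB, chr7:25125090-25125239, minus strand: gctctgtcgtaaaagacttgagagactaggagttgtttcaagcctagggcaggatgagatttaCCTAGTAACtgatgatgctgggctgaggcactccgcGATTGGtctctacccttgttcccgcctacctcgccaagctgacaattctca
SLA-DOA, chr7:25182666-25182815, minus strand: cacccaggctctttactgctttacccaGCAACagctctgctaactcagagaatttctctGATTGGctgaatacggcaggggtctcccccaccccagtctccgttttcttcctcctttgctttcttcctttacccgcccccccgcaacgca
CD74, chr2:151409925-151410074, minus strand: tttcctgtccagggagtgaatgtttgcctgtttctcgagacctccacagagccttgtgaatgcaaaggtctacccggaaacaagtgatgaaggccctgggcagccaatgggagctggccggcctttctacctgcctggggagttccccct

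The core of the Y box, GATTGG on either strand, was found in the 250 bases before the start of 7 of the 10 members, compared with 14.25% of 19556 promoters of the annotation. It was present in each of SLA-DRA, SLA-DRB1, SLA-DQA1, SLA-DQB1, SLA-DMA, SLA-DMB and SLA-DOA. The core of the X box was searched as CCTNGNNAC on either strand. This pattern was found in SLA-DQB1, SLA-DMB and SLA-DOB, 3 of the 10, and in 15.73% of all promoters. In SLA-DQB1, the letters matching this pattern began 76 bases before the start. They lay downstream of a GATTGG and upstream of its reverse complement CCAATC. In SLA-DMB, the matching letters began 87 bases before the start, upstream of GATTGG, which began 51 bases before it. Whether the match in SLA-DQB1 is the X box of this gene was not tested. A further pattern was chosen after the sequences had been seen: the letters GCAAC, upstream of GATTGG on the same strand with their first bases 10 to 50 apart. GCAAC fits the last 5 letters of the X box pattern, so it may mark X boxes that CCTNGNNAC missed. The pair of GCAAC and GATTGG occurred in 5 of the 10 members and in 80 of all 19556 promoters (0.409%). The distance between the first bases was 32 in SLA-DRA, SLA-DQA1 and SLA-DOA, 31 in SLA-DRB1 and 34 in SLA-DMA. The windows of CD74 and CIITA held none of the 3 patterns. A match describes letters in these windows only, and binding was not measured.

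The levels of the genes were first compared per kilobase of RefSeq exon sequence, as means over all 12 pigs. The RefSeq table gives no Ensembl identifiers for the SLA genes, so lengths were linked by symbol, and for HLA-DRA and HLA-DOB by the shared letters DRA and DOB. CD74, the invariant chain, had the highest level at 47.0 ± 15.8 CPM per kilobase (SD, n = 12). HLA-DRA, the alpha chain of DR, followed at 22.0 ± 7.63, and SLA-DQB1, the beta chain of DQ, at 14.5 ± 5.61 CPM per kilobase. The spreads of HLA-DRA and SLA-DQB1 between pigs overlapped, whereas CD74 stood above both. Within a library, counts of HLA-DRA were 1.579 to 2.335 times those of SLA-DQB1 in High MB pigs and 1.829 to 2.248 times in Low MB pigs. These are ratios of counts, on exon sequences of 1568 bases for HLA-DRA and 1194 for SLA-DQB1. The DM chains were lower, with SLA-DMA at 3.57 ± 1.54 and SLA-DMB at 3.07 ± 1.01 CPM per kilobase, and CIITA was at 2.55 ± 0.282. On this scale, these 3 did not differ beyond their spread between pigs. The level of CIITA was divided by 12128 bases, the union of all its annotated exons, and depends on that length. Before scaling, mean levels were 30.9 CPM for CIITA, 3.80 for SLA-DMA and 4.24 for SLA-DMB. SLA-DOA (0.397 ± 0.193) and HLA-DOB (0.132 ± 0.0564 CPM per kilobase), the chains of DO, were the lowest, and HLA-DOB rested on only 5 to 31 counts per pig.

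CIITA had the longest exon sequence of these genes, and its exons share 636 bases with DEXI, a gene on the opposite strand that had no row under its symbol. The library kit is not one that marks strand, so reads of CIITA and DEXI over these bases cannot be told apart. SLA-DMA and SLA-DMB lie within the annotated span of BRD2 on the other strand, but share 0 exon bases with it.

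Between the groups, all 6 members had a higher fitted level in the High MB pigs, with a median log2 fold change (High MB over Low MB) of 0.45, but none passed the test. The edgeR quasi-likelihood test was run over 13373 genes, and all 6 members passed its filter on low counts. A gene was called at a Benjamini-Hochberg adjusted p under 0.10 with an absolute log2 fold change over 0.58. The number of members called was 0 of 6, and the share of all genes called was 0.0%. At an unadjusted p under 0.05, 1 of 6 members (SLA-DMB) was higher in High MB, where 5.33% of all genes tested were, and 0 of 6 were lower, where 3.13% of all genes tested were. The median log2 fold change over all genes was -0.02, and 46.9% of them were positive. DESeq2 likewise called 0 of 6 members, while it called 0.201% of its 14417 genes. With HLA-DRA and HLA-DOB, 8 of 8 class II genes were positive and the median remained 0.45. Without High MB pig 6, the median of the 6 members was 0.29.

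SLA-DMB, the beta chain of the DM peptide exchanger, was the member with the smallest p. Its level was between 3.14 and 5.96 CPM in the High MB pigs (median 5.43), compared with 2.23 to 4.68 CPM in the Low MB pigs (median 3.10). The High MB pigs other than pig 1 lay between 5.36 and 5.96 CPM, above every Low MB pig, whereas High MB pig 1 fell within the Low MB range. The group means were 5.20 ± 1.04 and 3.28 ± 0.975 CPM (SD, n = 6 each). Its log2 fold change was 0.66 (SE 0.21, 95% interval 0.21 to 1.12), with an unadjusted p of 0.00765 and an adjusted p of 0.563 in the edgeR test. The exact two-sided permutation test of this gene alone gave p = 0.0195, where the smallest value 6 against 6 pigs allow is 0.00216. With each pig left out in turn, the log2 fold change was between 0.57 and 0.80 and the unadjusted edgeR p was at most 0.0187, while no adjusted p over the genes passed.

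SLA-DMA, the alpha chain that pairs with SLA-DMB, was between 2.14 and 6.06 CPM in the High MB pigs (median 4.95), compared with 1.80 to 5.35 CPM in the Low MB pigs (median 2.34). The groups overlapped: Low MB pigs 5 and 6, at 5.35 and 4.70 CPM, sat among the High MB pigs, and High MB pig 1 sat with the other Low MB pigs. The log2 fold change was 0.57 (SE 0.32, 95% interval -0.12 to 1.25), with an adjusted p of 0.637 in the edgeR test and an exact permutation p of 0.119. Within the standard libraries the log2 fold change was 1.07 and within the deep libraries 0.25. In a joint fit, the interaction of depth class and group was 0.86 (SE 0.62), with an adjusted p of 1.00 in edgeR, and 0.0% of all genes tested passed this test. The count ratio of SLA-DMA to SLA-DMB within a library was 0.865 ± 0.210 in the High MB pigs and 0.913 ± 0.293 in the Low MB pigs (SD, n = 6 each), so the balance of the DM chains overlapped between the groups.

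**Figure D1:**
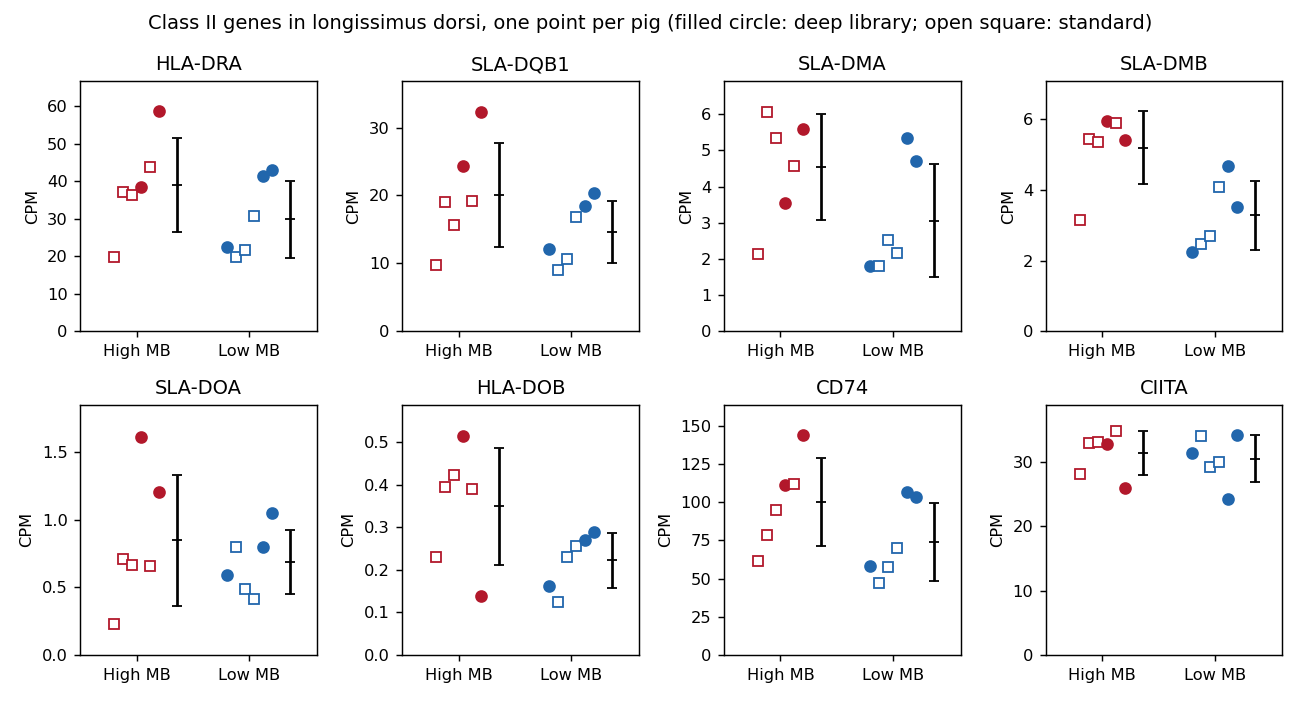
Level of 8 class II genes in each of the 12 pigs, in CPM on linear axes that start at 0. Points are pigs in order of their number within High MB (red) and Low MB (blue), filled circles are deep and open squares standard libraries, and black bars give the mean ± SD of the 6 pigs. For SLA-DMB, the High MB pigs other than pig 1 lie above every Low MB pig, while the groups overlap more in the other panels and CIITA stays between 24.2 and 34.8 CPM.

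CD74 was between 61.8 and 144 CPM in the High MB pigs (median 103), compared with 46.9 to 107 CPM in the Low MB pigs (median 64.3), on 1877 to 13397 counts per pig. In the Low MB group, pigs 5 and 6 stood at 107 and 103 CPM and the other 4 at 70.2 CPM or less. In the High MB group, pig 6 was highest and pig 1 lowest, and 3 of the 6 pigs were above every Low MB pig. For CD74, the log2 fold change was 0.44 (SE 0.23, 95% interval -0.05 to 0.94), with an adjusted p of 0.606 in the edgeR test and an exact permutation p of 0.108.

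HLA-DRA ranked the pigs in a similar order. Its level was between 19.9 and 58.7 CPM in the High MB group (median 37.9), compared with 19.9 to 43.0 CPM in the Low MB group (median 26.6). The log2 fold change was 0.39 (SE 0.25, 95% interval -0.14 to 0.92), with an adjusted p of 0.662 in the edgeR test and an exact permutation p of 0.219. SLA-DQB1 was between 9.75 and 32.3 CPM in the High MB pigs (median 19.2), compared with 8.98 to 20.3 CPM in the Low MB pigs (median 14.5). Only High MB pigs 4 and 6, at 24.4 and 32.3 CPM, were above every Low MB pig. The log2 fold change of SLA-DQB1 was 0.46 (SE 0.26, 95% interval -0.10 to 1.02), with an adjusted p of 0.636 in the edgeR test and an exact permutation p of 0.199. Without High MB pig 6, the log2 fold changes of CD74, HLA-DRA and SLA-DQB1 were 0.31, 0.23 and 0.27.

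The DO chains, which restrain DM, were near the lower limit of these libraries. SLA-DOA was between 0.232 and 1.61 CPM in the High MB pigs (median 0.685), compared with 0.412 to 1.05 CPM in the Low MB pigs (median 0.692), on 9 to 112 counts per pig. The medians were nearly the same, and the higher High MB mean rested on pigs 4 and 6. The fitted log2 fold change was 0.31 (SE 0.40, 95% interval -0.55 to 1.16), with an adjusted p of 0.859 in the edgeR test and an exact permutation p of 0.747. It was 0.02 without High MB pig 4 and 0.00 within the standard libraries. HLA-DOB was between 0.140 and 0.516 CPM in the High MB pigs (median 0.393), compared with 0.125 to 0.290 CPM in the Low MB pigs (median 0.244). Its log2 fold change was 0.63 (SE 0.38, 95% interval -0.18 to 1.45), with an adjusted p of 0.653 in the edgeR test and an exact permutation p of 0.117. With each pig left out, it was between 0.48 (without High MB pig 4) and 0.81 (without High MB pig 6).

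CIITA, the coactivator of class II transcription, was the least variable of the members. It was between 26.0 and 34.8 CPM in the High MB pigs (median 32.9), compared with 24.2 to 34.2 CPM in the Low MB pigs (median 30.7). The highest pig was 1.44-fold above the lowest, compared with 2.67-fold for SLA-DMB, 3.07-fold for CD74 and 3.60-fold for SLA-DQB1. The groups overlapped almost completely, and the log2 fold change was 0.04 (SE 0.11, 95% interval -0.19 to 0.27), with an adjusted p of 0.944 in the edgeR test and an exact permutation p of 0.699. The direction was not stable, since the log2 fold change was -0.02 without Low MB pig 5.

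**Figure D2:**
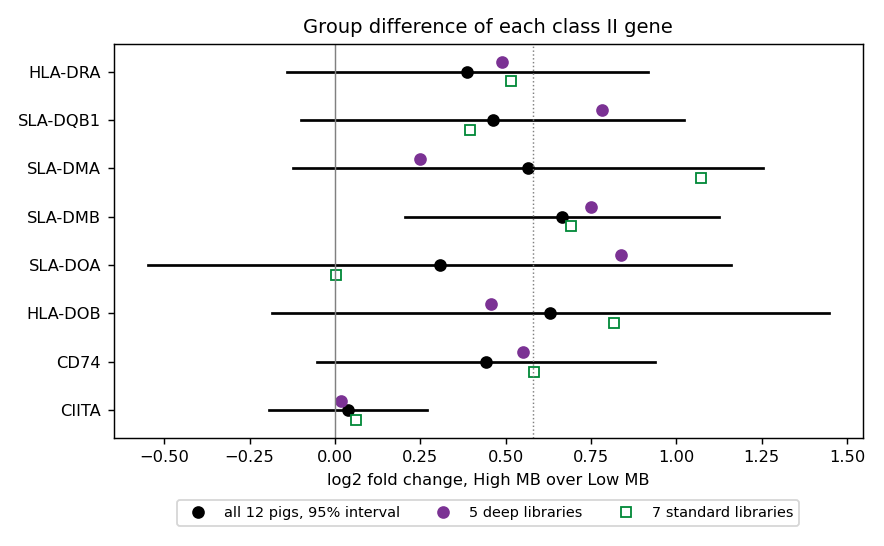
Log2 fold change of each class II gene (High MB over Low MB) on the horizontal axis, with 95% intervals from edgeR over all 12 pigs (black), and the estimates within the 5 deep (purple circles) and 7 standard libraries (green squares). The dotted line is the limit of 0.58 on the log2 scale. Of the 8 intervals, only that of SLA-DMB (0.21 to 1.12) lies above 0.

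The log2 fold change was positive for 6 of 6 members among the deep libraries and likewise for 6 of 6 among the standard ones, with medians over all genes of 0.01 and 0.00. CD74 was at 0.55 in the deep class and 0.58 in the standard class, SLA-DMB at 0.75 and 0.69, and SLA-DQB1 at 0.78 and 0.39. SLA-DOA was at 0.84 and 0.00, and the interaction of depth class and group for this gene was -0.80 (SE 0.68), with an adjusted p of 1.00 in edgeR. With the depth class as a covariate in edgeR, 4 of 6 members (CD74, SLA-DMB, SLA-DQB1 and SLA-DMA) had an unadjusted p under 0.05, as did 1338 of all 13373 genes compared with 1132 without the covariate, and 0 of 6 were called, the smallest adjusted p of a class II gene being 0.461 (edgeR). Without pig 2 of High MB and pig 4 of Low MB, SLA-DMB had a log2 fold change of 0.74 and remained the single member at an unadjusted p under 0.05.

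Ranking the 12 pigs by their levels of the 8 class II genes, from 1 for the highest, showed the same animals at the ends. High MB pigs 4 and 5 had the highest overall levels, with mean ranks of 3.25 and 3.63. High MB pig 1 had the lowest, with a mean rank of 10.1, and was followed by Low MB pigs 1, 2 and 3 at 9.63 each. Low MB pigs 5 and 6, with mean ranks of 5.75 and 4.25, ranked among the High MB pigs. In CD74, SLA-DMA and HLA-DRA, the overlap between the groups lay in these 3 animals, High MB pig 1 and Low MB pigs 5 and 6, which were singled out after their values were seen.

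The levels of the class II chains and CD74 varied together from pig to pig. Pearson correlations of log2 CPM with CD74 over the 12 pigs were tested by 100000 permutations and adjusted over 13372 genes. HLA-DRA had the highest correlation with CD74 of all 13372 genes, with r = 0.958 (permutation p = 1e-05, the smallest these permutations can give, adjusted p = 0.0446) and Spearman's rho = 0.923 (permutation p = 7e-05). SLA-DQB1 ranked 3 of all genes, with r = 0.926 (permutation p = 2e-05, adjusted p = 0.0446) and rho = 0.902 (permutation p = 0.00016). These were among 66 genes with an adjusted p under 0.10, and the median r over all genes was -0.03. Without pig 6 of High MB and pig 2 of Low MB, the pigs farthest from the median of CD74, r was 0.933 for HLA-DRA and 0.858 for SLA-DQB1.

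The DM chains were less close to CD74. SLA-DMB had r = 0.828 (permutation p = 0.00167, adjusted p = 0.118) and rho = 0.825 (permutation p = 0.00138), at rank 62. SLA-DMA had r = 0.828 (permutation p = 0.00217, adjusted p = 0.124) and rho = 0.699 (permutation p = 0.0141), at rank 65. Neither passed the adjustment. For SLA-DOA, r was 0.609 (permutation p = 0.0332, adjusted p = 0.274), with rho = 0.5385 (permutation p = 0.0713). For HLA-DOB, r was 0.425 (permutation p = 0.1665, adjusted p = 0.498), with rho = 0.4755 (permutation p = 0.121). Both rest on low counts.

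For CIITA, no relation with CD74 was detected, with r = -0.19 (permutation p = 0.558, adjusted p = 0.815), rho = 0 (permutation p = 1) and rank 8510 of 13372. Without these same 2 pigs, its r was 0.248, and it was 0.445 within the standard and -0.38 within the deep libraries. The correlation of CIITA with HLA-DRA was -0.11, with SLA-DQB1 -0.13 and with SLA-DMB -0.01, given as descriptions.

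**Figure D3:**
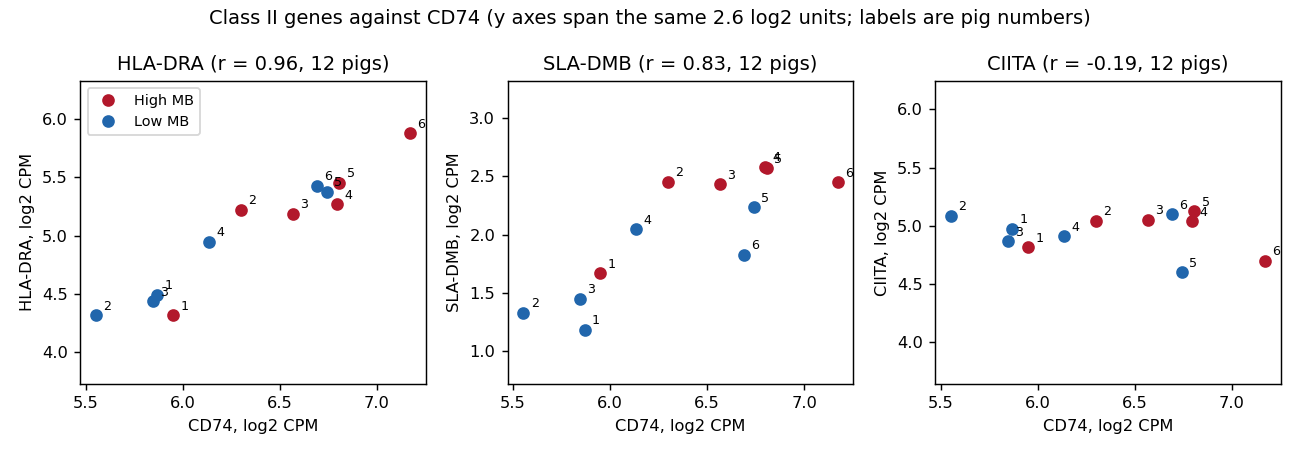
Log2 CPM of HLA-DRA, SLA-DMB and CIITA (vertical axes, each spanning the same range) against log2 CPM of CD74 (horizontal axes) in 12 pigs, red for High MB and blue for Low MB, with the pig numbers. HLA-DRA lies along a line (r = 0.958), SLA-DMB less closely (r = 0.828), and CIITA is nearly flat (r = -0.19).

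The correlations were also computed with the group means removed. For the chains of DR, DQ and DM they changed little: r with CD74 was 0.9545 for HLA-DRA, 0.912 for SLA-DQB1, 0.783 for SLA-DMB and 0.776 for SLA-DMA. SLA-DOA was at 0.640, and HLA-DOB fell to 0.250. Within the 7 standard libraries, r was 0.926 for HLA-DRA, 0.851 for SLA-DQB1, 0.946 for SLA-DMB and 0.8095 for SLA-DMA, and within the 5 deep libraries 0.979, 0.957, 0.899 and 0.9115. For SLA-DOA, r was 0.205 within the standard and 0.758 within the deep libraries. For HLA-DOB, these values were 0.919 and 0.165, and r was 0.746 without pig 6 of High MB and pig 2 of Low MB. Over all 28 pairs of the 8 class II genes, r was between -0.19 (CD74 and CIITA) and 0.96 (CD74 and HLA-DRA), with a median of 0.56. Counts of CD74 were 2.62 ± 0.347 times those of HLA-DRA in the High MB pigs and 2.48 ± 0.155 times in the Low MB pigs (SD, n = 6 each). Counts of HLA-DRA were 2.00 ± 0.283 and 2.05 ± 0.181 times those of SLA-DQB1. Both ratios overlapped between the groups while the levels themselves varied between 2.96-fold (HLA-DRA) and 3.60-fold (SLA-DQB1) over the pigs.

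The 10 genes most like CD74 by Pearson's r over the 12 pigs were HLA-DRA, TP53I11, SLA-DQB1, CYB561, SPTAN1, CD93, ENSSSCG00000021891, SLC22A17, GAB3 and CLMN, with r from 0.958 down to 0.897. CLMN had as few as 1 count in a pig.

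Among cells that carry class II, the markers of macrophages had mostly higher values in the High MB pigs, although none passed the adjustment. All 15 macrophage markers were tested, 10 of 15 were higher at an unadjusted p under 0.05 (5.33% of all genes were) and 0 were lower, and the median log2 fold change was 0.78. For 4 of these 10, the exact permutation test of the gene alone gave a p over 0.05: CD163 (0.0736), MRC1 (0.0758), FCER1G (0.0736) and VSIG4 (0.0519). The summed level of all 15 was between 194 and 320 CPM in the High MB group (median 252), compared with 136 to 211 CPM in the Low MB group (median 180), and the integrin ITGAM, at a mean of 125 CPM and a log2 fold change of 0.25 (adjusted p of 0.716 in the edgeR test), was the largest part of it. The largest values at this limit were those of the signalling adaptor TYROBP (1.28), the calcium-binding protein AIF1 (1.11) and the haemoglobin scavenger receptor CD163 (1.09), each with an adjusted p of 0.563 in the edgeR test. Their spread in High MB was wide. TYROBP was at 3.88 ± 2.66 CPM (SD, highest pig 8.85) compared with 1.59 ± 0.682 in Low MB. AIF1 was at 2.49 ± 1.68 CPM (highest pig 5.79) compared with 1.15 ± 0.385. CD163 was at 10.7 ± 8.66 CPM (highest pig 27.8) compared with 5.04 ± 2.57. The complement subunits C1QA, C1QB and C1QC had log2 fold changes of 0.93, 0.78 and 0.77, and CSF1R, the receptor of macrophage colony-stimulating factor, 0.60. The correlation of CD74 with C1QC was 0.7065, with C1QA 0.695, with TYROBP 0.557, with CSF1R 0.504 and with CD163 0.388, all below that with HLA-DRA. With the group means removed, these were 0.590, 0.573, 0.383, 0.289 and 0.178, and they were between -0.18 (CD163) and 0.288 (C1QA) within the High MB pigs and between 0.574 (CSF1R) and 0.793 (C1QC) within the Low MB pigs. Of genes of other cells, r was 0.6935 for the endothelial PECAM1 (0.619 with the group means removed), 0.666 for the T cell gene CD3E (0.591), 0.131 for CD4 (0.166), 0.508 for the leukocyte gene PTPRC (0.392) and 0.722 for the myeloid factor IRF8 (0.620). The part of macrophages or other cells in the differences of the class II genes was not tested.

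Markers of B and T cells were sparse, as were 4 of the 7 dendritic cell markers with a row (FLT3, XCR1, BATF3 and CCR7, each at a mean of 0.513 CPM or less, named after their values were seen). Of 9 dendritic cell markers, 5 were tested and 0 differed at an unadjusted p under 0.05, with a median log2 fold change of 0.25. Of 7 B cell markers, 2 were tested and 0 differed at this limit in edgeR, with log2 fold changes of 0.21 for CD79A and 1.06 for CD22 (exact permutation p of 0.435 and 0.0346) and a median of 0.63. The summed level of the list was between 1.03 and 1.72 CPM in the High MB pigs compared with 0.590 to 1.85 CPM in the Low MB pigs. The defining B cell marker MS4A1 had at most 8 counts in any pig and was at 0 in at least 1. The 5 T cell markers tested gave 0 differences at this limit, and their summed level was at most 4.21 CPM in any pig. The leukocyte marker PTPRC had a log2 fold change of 0.57 (adjusted p of 0.653 in the edgeR test). All 7 endothelial markers tested had a positive log2 fold change, with a median of 0.27. At this limit 1 of 7 was higher, the receptor TIE1 (log2 fold change 0.55), where 5.33% of all genes were. The summed level of the list was between 191 and 250 CPM in the High MB pigs compared with 145 to 252 CPM in the Low MB pigs.

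**Figure D4:**
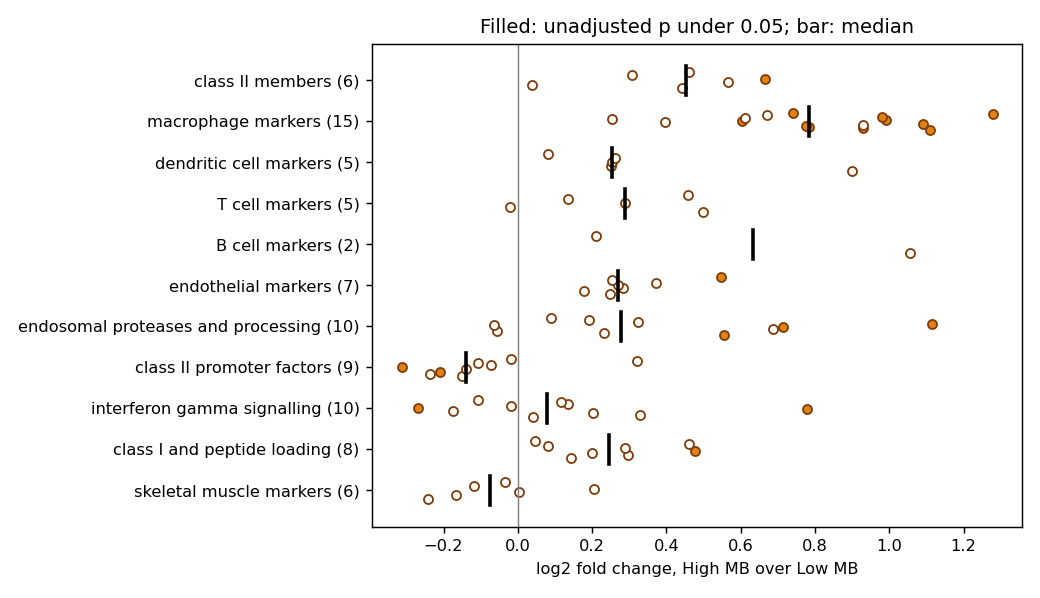
Log2 fold change (High MB over Low MB, horizontal axis) of the genes tested in each list (rows, with their number), where filled points have an unadjusted edgeR p under 0.05 and the bar is the median of the list. The macrophage markers (median 0.78) and the class II members (median 0.45) lie to the right of 0. All tested genes of the dendritic cell, B cell, endothelial and class I lists do as well. Most class II promoter factors (median -0.14) lie to the left and the muscle markers (median -0.08) on both sides.

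The factors that act with CIITA at class II promoters had a median log2 fold change of -0.14. Of 9 tested, 0 were higher and 2 were lower in High MB at an unadjusted p under 0.05, compared with 5.33% and 3.13% of all genes: NFYA, the DNA-binding subunit of the Y box factor NF-Y (log2 fold change -0.31), and the acetyltransferase EP300 (-0.21), with adjusted p of 0.578 and 0.564 in the edgeR test. RFX5, the X box subunit, had a log2 fold change of 0.32 (adjusted p of 0.732 in the edgeR test), and was named after its value was seen.

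Of the interferon gamma pathway, which induces CIITA, 10 genes were tested, 1 was higher and 1 lower at this limit (5.33% and 3.13% of all genes were). IRF8, a transcription factor of myeloid cells, had a log2 fold change of 0.78 and the receptor kinase JAK1 of -0.27, with adjusted p of 0.563 and 0.564 in the edgeR test. The ligand gene IFNG itself had 0 to 10 counts per pig and was not tested.

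Of the endosomal proteases and processing genes, 10 were tested, 3 were higher and 0 lower at this limit (5.33% and 3.13% of all genes were), with a median log2 fold change of 0.28. The 3 were CTSS, the cathepsin that trims the invariant chain in antigen-presenting cells (0.71), the thiol reductase IFI30 (1.11) and the cysteine protease inhibitor CST3 (0.55), all with an adjusted p of 0.563 in the edgeR test. CTSD and CTSB, the most abundant of the list, had log2 fold changes of -0.06 and 0.23. Of 9 costimulatory ligands and T cell receptors of the class II synapse, 4 passed the filter and 0 differed at this limit, and 5 had a pig at 0 counts. Of the list for class I presentation, the other presentation pathway, 8 genes had a row and were tested, all of them peptide loading, proteasome or regulator genes and none a class I chain. All 8 had a positive log2 fold change, with a median of 0.24 and 1 gene, the immunoproteasome subunit PSMB8 (0.48), higher at an unadjusted p under 0.05 (5.33% of all genes were).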

How the data were processed

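Paired-end libraries of 12 longissimus dorsi samples were trimmed with Trim Galore, aligned to Sscrofa11.1 with HISAT2 and counted with htseq-count by the authors, who deposited raw counts per gene without normalization. The annotation release and strand setting are not given in the sources used here. The transcript counts were not used. Reads that htseq-count could not assign were left out of library sizes. Of the reads that were assigned, ambiguous or without a feature, 47.0% to 48.2% per library were assigned to genes. Reads that aligned in several places were not part of this share.

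Samples were grouped by their labels. Counts were scaled by TMM, filtered with filterByExpr and tested with edgeR 4.0.16 in R 4.3.3, High MB against Low MB, without covariates. DESeq2 1.42.0, other size factors, no filter, a covariate for depth class, a block for the individual number and leaving out each pig were tried as alternatives. CPM used TMM, and log2 CPM a prior count of 2. Permutation tests used scipy 1.17.1. The edgeR step was tested on simulated data. P-values measure the spread between these pigs.

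The members and lists were chosen with earlier results of these data known, and median differences and counts over them are descriptions. Named from the lists were genes at an unadjusted p under 0.05 and the 2 most abundant of each, and the 10 genes most correlated with CD74. MS4A1, IFNG, CD4, RFX5 and 4 dendritic cell markers were named besides, after their values were seen. Values of some listed genes are not reported here. Symbols came from a table of pig gene identifiers. Positions, exon lengths and promoter sequences were read from the RefSeq genome and annotation of Sscrofa11.1, the build of the files.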

Additional observations from a re-analysis of the deposited data

Results flagged for a closer look

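SLA-DMB in High MB pig 1 stood apart from the other High MB pigs: at 3.14 CPM it was the lowest, and its gap to the next pig (5.36 CPM) was, on the log2 CPM scale, 0.835 of the range of the group. This is above Dixon's 95% critical value for groups of 6. It was the single case among 16 sets of 1 class II gene and 1 group, and chance flags about 1 in 20. The same pig had the lowest High MB level of CD74, HLA-DRA, SLA-DQB1, SLA-DMA and SLA-DOA. The cause was not tested.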

How the results depend on the processing

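No class II member was called under any alternative run. The number of genes called was 0 under edgeR in the alternatives for which it was counted, leaving out each pig included (0 to 0) and the single depth classes not, and 29 with DESeq2, at 1132 genes with an unadjusted p under 0.05 in edgeR and 1454 in DESeq2. The median log2 fold change of the members (0.45) stayed positive, but was 0.29 without High MB pig 6 and 0.65 in the deep libraries alone. The direction of each member was kept under all alternatives, except that CIITA, between -0.0206 and 0.0867 with each pig left out, was negative without Low MB pig 5, and the cause was not tested. The number of members at an unadjusted p under 0.05 was 1 in the main analysis, 4 with the depth class as a covariate, 4 without High MB pig 1, 3 without Low MB pig 5, 3 without Low MB pig 6 and 3 in the standard libraries alone. Over all genes, this limit was passed by 1132 in the main analysis and by 1338, 1352, 1305, 1454 and 860 in these. The individual numbers did not pair the pigs (correlations of deviations from -0.21 to 0.14, and 0 of 6 pairs matching best), and with the number as a replicate block 0 members and 0 genes were called, 957 genes and 4 members having an unadjusted p under 0.05. The edgeR intervals of all members but SLA-DMB include 0, and differences inside them could not be resolved with 6 pigs per group.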
